A study of Oryctolagus cuniculus with 16 samples.

Results

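Heat shock proteins and their DNAJ co-chaperones form a family of genes picked here by symbol: every gene whose symbol starts with HSP (except HSPG2 and HSPBAP1, which are not chaperones) or DNAJ, the BAG genes numbered 1 to 6, and CRYAB. The TRiC chaperonin genes were left out. Of 13788 gene symbols in the count table, 58 matched and 55 had a count in at least 1 library, among 11925 symbols with a count. The other 3, DNAJC5G, DNAJC5B and HSPB9, were at 0 in all 16 libraries. By role, the 55 members held 5 small heat shock proteins, 12 HSP70 and HSP110 chaperones, 1 HSP90 chaperone, and 3 DNAJA, 8 DNAJB and 20 DNAJC co-chaperones. The others were 5 genes listed as nucleotide exchange factors (BAG2, BAG3, BAG4, BAG6 and HSPBP1), and HSPB11, an intraflagellar transport protein that carries the family name. Genes of the same family that are not analysed here include HSPB1, HSP90AA1, HSP90AB1, HSPD1, HSPE1, DNAJB1, HSPA1A, HSPA1B and BAG1, so that several of the classical heat-inducible genes are not part of the account.

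The libraries were made from cerebral arteries of 4 female New Zealand white rabbits, 24 h after surgery. Rabbits 3 and 4 had a sham operation and rabbits 5 and 6 had both common carotid arteries ligated, which raises the flow through the basilar artery. From each rabbit, the intima, which holds the endothelium, and the media, which holds the vascular smooth muscle cells (VSMCs), were cut by laser microdissection from the straight basilar artery (BA) and from the basilar terminus (BT), the bifurcation at its end. Each of the 8 combinations of layer, location and flow thus had 2 rabbits, and all 16 libraries came from the same 4 animals, all of them perfused with heparinized saline before the arteries were frozen and sectioned.

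Molecular chaperones keep other proteins folded. HSP70 proteins bind unfolded stretches in a cycle driven by ATP, and DNAJ proteins deliver clients to HSP70 and speed up its ATPase. Nucleotide exchange factors, such as HSP110 proteins, several BAG proteins and HSPBP1, release ADP and with it the client. Small heat shock proteins hold unfolding proteins without ATP, and in muscle they associate with the contractile apparatus and with filamin. The transcription factor HSF1 induces many of the cytosolic chaperones under proteotoxic stress, while those of the endoplasmic reticulum (ER) are induced by the unfolded protein response.

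Sequencing depth, as total counts over all gene symbols, was 5211886 to 17686105 for intima and 2154863 to 11219236 for media. Levels are given as CPM, counts scaled by TMM to a common library size, which is not corrected for gene length, so levels are compared between libraries and not between genes. A count of 0 allows up to 3 counts, or 0.169 to 1.58 CPM depending on the library, for counting error alone. Between the 2 rabbits of a group, chi-square per degree of freedom over genes was 18.6 to 414, so the spread between rabbits was far above counting error. Tests are quasi-likelihood F tests of edgeR, and q is the p after Benjamini-Hochberg adjustment over all genes tested in a comparison, with a threshold of 0.05. Of the 55 members, 53 had a mean above 1 CPM in a group of at least 1 comparison, and DNAJB13 and DNAJC30 were tested in none.

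Markers of the 2 layers were present where the labels place them. Over 7 smooth muscle markers the summed level was 83213 to 141704 CPM in the medial and 12034 to 83878 CPM in the intimal libraries, and over 9 endothelial markers it was 1232 to 5928 CPM in the intimal and 460 to 1666 CPM in the medial libraries. Smooth muscle markers were thus measured in the intimal strips too. Erythrocyte genes reached 129800 CPM in the intima and 6613 CPM in the media. Neuronal and glial markers stayed below 11 CPM, and skeletal and cardiac muscle markers below 64 CPM in every library. In bulk tissue of this kind, fewer cells of a type and less RNA per cell cannot be told apart.

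The members together made up 0.595% to 3.65% of all counts per library, and CRYAB supplied from 12.7% to 78.1% of them. CRYAB (alpha B-crystallin) is a small heat shock protein of muscle and lens that holds desmin and other filament proteins. Its level in the BA media was 3414 and 2253 CPM in sham rabbits 3 and 4, and 32399 and 29953 CPM in ligated rabbits 5 and 6. In the BT media it was 4991 and 2630 CPM without ligation and 9221 and 10479 CPM with it. Both ligated libraries were above both sham libraries at either location, and the 2 ligated BA media libraries had the highest CRYAB levels of all 16.

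In the intima CRYAB was more variable between rabbits. It was 3617 and 1141 CPM in the sham BA intima and 13420 and 10126 CPM after ligation, without overlap. In the BT intima it was 3028 and 741 CPM in sham rabbits and 2527 and 5204 CPM in ligated rabbits, which overlap. Rabbit 4 had the lower sham level in all 4 tissues.

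**Figure D1:**
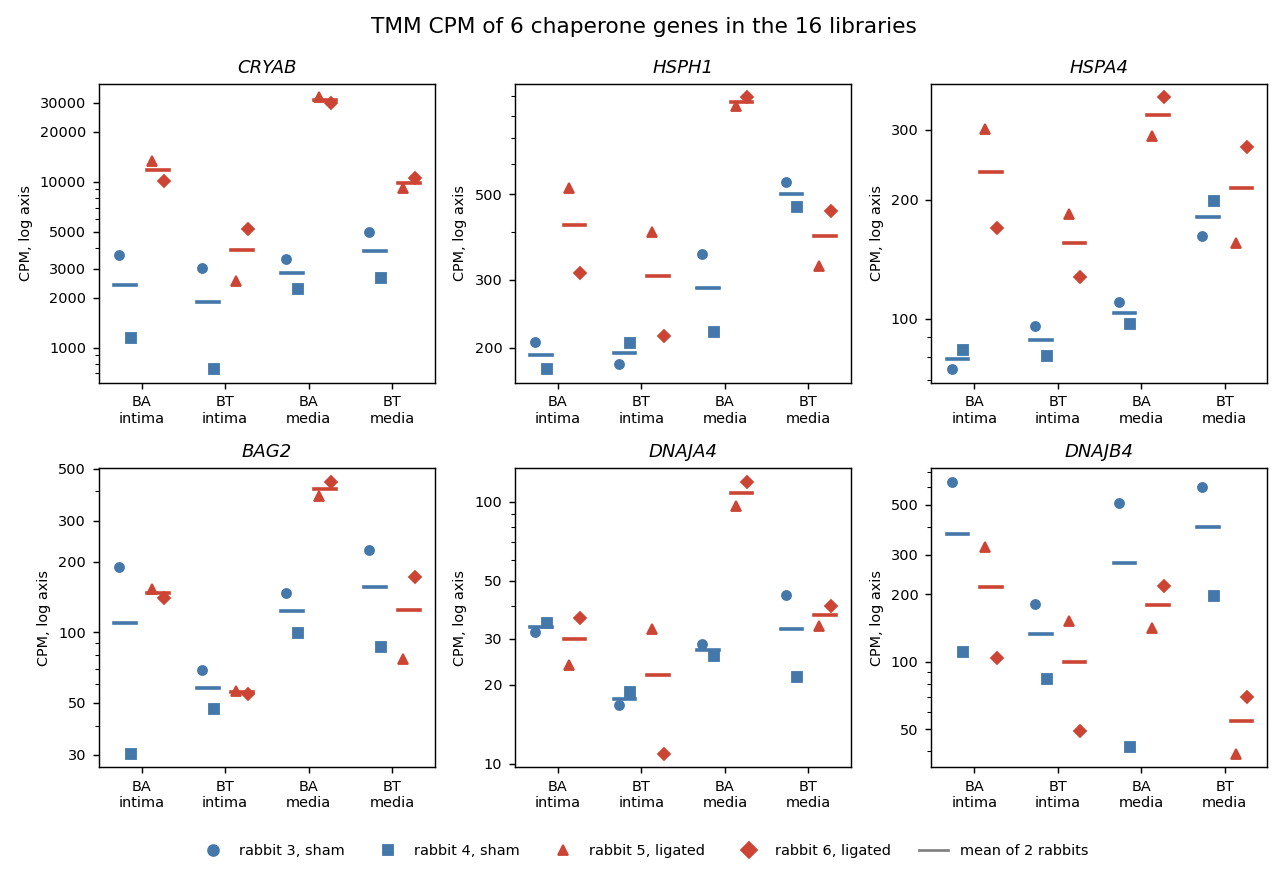
TMM CPM (y axis, log scale) of CRYAB, HSPH1, HSPA4, BAG2, DNAJA4 and DNAJB4 in each library, by location and layer (x axis). Each point is 1 rabbit, blue for sham and red for ligated, with a bar at the mean of 2 rabbits. CRYAB, HSPH1, BAG2 and DNAJA4 stand highest in the 2 ligated BA media libraries, while for DNAJB4 both ligated BT media libraries lie below both sham libraries.

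The first comparison asked what higher flow did to these genes in the media of the straight BA. CRYAB rose with ligation, by 3.48 on the log2 scale (SE 0.26, q = 0.00181), a ratio of means of 11.0. It was the 1 of 48 members tested that passed the threshold, where 0.805% of all 8817 genes tested did. Below the threshold the other members leaned upwards: 10 of 47 had an unadjusted p below 0.05 with a higher level and 0 with a lower level, against 6.75% higher and 6.87% lower among all genes, and their median log2 change was 0.32 against -0.14 over all genes. In 17 of 48 members both ligated rabbits were above both sham rabbits and in 7 both were below, against 21% and 26% of all genes.

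Those 10 other members were 4 HSP70 and HSP110 chaperones of the cytosol, mortalin, 3 J proteins, BAG2 and HSP90B1. HSPH1, the inducible HSP110 exchange factor, had 351 and 220 CPM in sham and 847 and 893 CPM in ligated BA media (log2 change 1.63, SE 0.34, q = 0.0723). HSPA4, a second HSP110 protein, had 110 and 97.0 CPM against 290 and 362 CPM (1.68, SE 0.34, q = 0.0706). BAG2, which binds HSP70 and inhibits the ubiquitin ligase CHIP, had 148 and 99.0 CPM against 381 and 440 CPM (1.76, SE 0.36, q = 0.0679). In all 3 genes the ligated levels were about 3 times the sham levels, with a ratio of means of 3.05, 3.14 and 3.33.

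Among the J-domain proteins, DNAJA4, a cytosolic partner of HSP70, had 28.6 and 25.8 CPM in sham and 96.0 and 119 CPM in ligated BA media (log2 change 2.01, SE 0.44, q = 0.0850). DNAJC3, an ER co-chaperone also known as p58IPK, had 126 and 97.0 CPM against 348 and 265 CPM (1.48, SE 0.36, q = 0.117). Neither gene passed the threshold, although the groups did not overlap. DNAJC21, a ribosome biogenesis factor, had 59.9 and 58.7 CPM against 136 and 136 CPM (1.22, SE 0.38, q = 0.212).

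HSPA8, HSPA9 and HSPA14 were also higher in both ligated rabbits than in both sham rabbits. HSPA8, the constitutive cytosolic HSP70, had 423 and 337 CPM in sham and 641 and 707 CPM in ligated BA media (log2 change 0.85, SE 0.30, q = 0.272). HSPA9, the mitochondrial HSP70 or mortalin, had 136 and 76.6 CPM against 194 and 341 CPM (1.35, SE 0.44, q = 0.230). HSPA14, which acts at the ribosome, had 31.2 and 50.1 CPM against 107 and 108 CPM (1.43, SE 0.44, q = 0.209). All 9 HSP70 and HSP110 genes tested had a fitted change above 0, from 0.17 to 1.68, where 45% of all genes did. Their median was 0.85, against -0.14 over all genes. The lean of this class was not limited to the BA media. In the BA intima 9 of 11 were above 0 (median 0.84, against -0.10 over all genes). In the BT intima 8 of 11 were (0.67 against -0.13), and in the BT media 6 of 10 (0.19 against 0.03). HSP90B1, the HSP90 of the ER, completed the 10 members, and its values are given with the other ER chaperones.

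No member of the BA media had an unadjusted p below 0.05 with a lower level. The 3 nearest to it were DNAJC9, a histone co-chaperone (68.4 and 28.1 CPM in sham against 16.9 and 18.1 CPM in ligated rabbits, q = 0.367), DNAJC18 (45.4 and 64.3 against 30.6 and 24.4 CPM, q = 0.457) and BAG4 (22.6 and 16.8 against 7.38 and 7.60 CPM, q = 0.502). Each of these was lower in both ligated rabbits.

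The BA media calls depended on the fit. With DESeq2, or with edgeR over all genes with a count, 7 members passed, namely CRYAB, HSPH1, HSPA4, HSPA9, BAG2, DNAJA4 and DNAJC3. The share of all genes that passed in those fits is not given here, so the 7 cannot be set against it. With any 1 rabbit left out no member passed, and the q of CRYAB was 0.134 without rabbit 3, 0.195 without rabbit 4, 0.109 without rabbit 5 and 0.0618 without rabbit 6, at log2 changes of 3.20 to 3.84.

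In the BT media, ligation moved other members. DNAJB4, a cytosolic J protein induced by HSF1, fell by 2.86 on the log2 scale (SE 0.51, q = 0.0134), and HSPBP1, an HSP70 exchange factor, rose by 2.58 (SE 0.55, q = 0.0332). These were 2 of 47 members tested, beside 2.34% of 8803 genes. With an unadjusted p below 0.05, 3 members were higher and 2 were lower, against 7.95% higher and 8% lower among all genes, and the median change over the members was 0.08 against 0.03 over all genes. In 12 of 47 members the ligated rabbits were above the sham rabbits without overlap and in 8 below, against 25.5% and 23% of all genes.

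DNAJB4 had 600 and 196 CPM in sham BT media and 39.0 and 69.5 CPM in ligated BT media, a ratio of means of 0.136. The sham rabbits thus stood wide apart, with rabbit 3 above rabbit 4. The same held in the 3 other tissues: 635 and 110 CPM in the BA intima, 182 and 83.6 CPM in the BT intima, and 511 and 41.9 CPM in the BA media. The ligated levels in these 3 tissues lay within or overlapped the sham range, at 324 and 104, 151 and 49.2, and 141 and 217 CPM for rabbits 5 and 6. In the RefSeq annotation of the assembly mOryCun1.1 DNAJB4 overlaps FUBP1, CRYAB overlaps HSPB2 and C1H11orf52, and BAG2 overlaps RAB23. RAB23 had 4.99 to 32.5 CPM. In the media its ligation change at the BT minus that at the BA was -1.56 (SE 1.16, q = 0.801). This has the same sign as the difference for BAG2 given below. Levels of FUBP1, HSPB2 and C1H11orf52 are not given here.

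HSPBP1 had 9.01 and 18.1 CPM in sham BT media and 67.3 and 95.4 CPM in ligated BT media, from 31 to 816 counts a library. Its level was below 53 CPM in all 12 other libraries. The highest of those were ligated libraries of rabbit 6, at 39.7 CPM in the BA intima, 52.5 CPM in the BT intima and 52.4 CPM in the BA media. The sham BA media of rabbit 4 had 37.5 CPM.

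In the BT media CRYAB had a log2 change of 1.38 (SE 0.34, q = 0.0550) and did not pass. BAG3, an exchange factor that links HSP70 and HSPB8 to selective autophagy, had 372 and 366 CPM in the sham and 182 and 126 CPM in the ligated BT media (log2 change -1.25, SE 0.33, q = 0.0745). Both ligated libraries were below both sham libraries for BAG3. DNAJB2 had 1.74 and 2.26 CPM against 13.4 and 16.8 CPM (2.90, SE 1.06, q = 0.199), from 6 to 144 counts a library. HSPB8, a small heat shock protein that works with BAG3, had 281 and 393 CPM against 224 and 242 CPM (-0.52, SE 0.32, q = 0.457).

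The BT media calls also depended on the fit. DESeq2 called 4 members, adding CRYAB and BAG3, and a fit over the 8 medial libraries called CRYAB alone. Shares of all genes called in these fits are not given. The log2 change of DNAJB4 was -1.83 without rabbit 3 and -3.44 without rabbit 4, and that of HSPBP1 was 2.18 and 3.19. The q of DNAJB4 was 0.0847 without rabbit 5 and 0.0927 without rabbit 6, that of HSPBP1 was 0.0951 and 0.368, and 5 members passed without rabbit 3, among them CRYAB (log2 change 1.92, q = 0.000238), BAG3 and DNAJC7.

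Marker levels of other cell types differed between the sham and ligated media. The summed smooth muscle markers were 91871 to 99037 CPM in sham and 126946 to 141704 CPM in ligated BA media, and 83213 to 119219 against 84371 to 91554 CPM in the BT media. The 8 leptomeningeal and adventitial fibroblast markers were 21841 to 30469 CPM in sham and 4812 to 5356 CPM in ligated BA media, and 12346 to 15553 against 3550 to 5494 CPM in the BT media, with SLC13A3 at 0 in all ligated medial libraries and in both sham BT media libraries. The 9 macrophage markers summed to 255 to 336 CPM in sham and 66.0 to 170 CPM in ligated BA media, and to 67.1 to 90.6 against 105 to 171 CPM in the BT media. The part of these lists in the chaperone values was not tested.

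**Figure D2:**
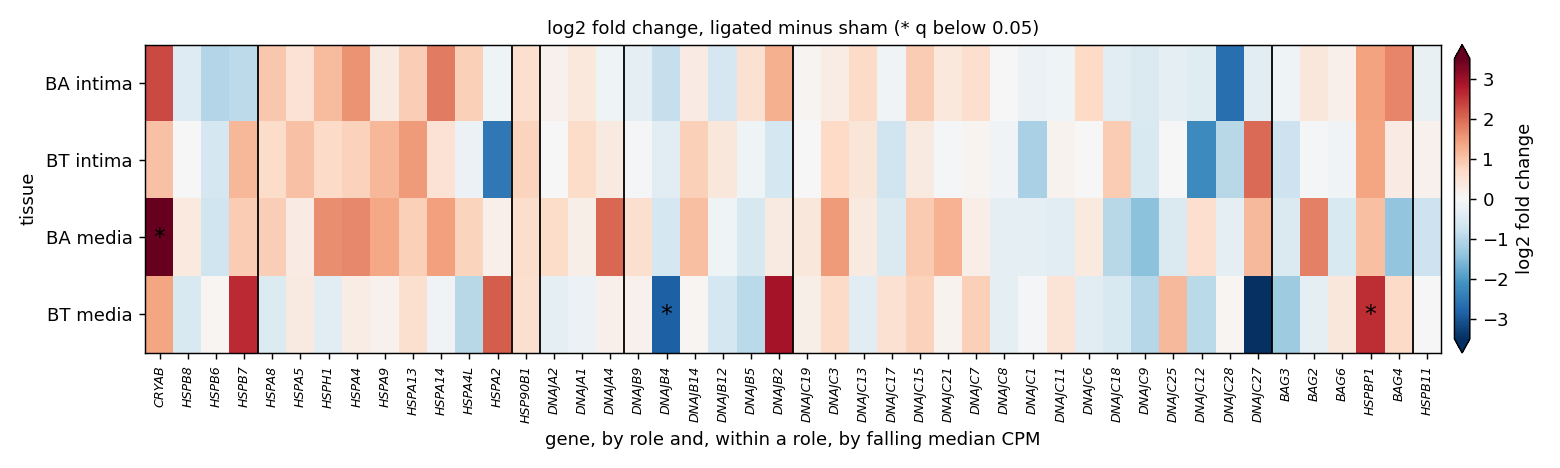
Fitted log2 fold change with ligation (colour, red for higher and blue for lower in ligated rabbits, cut at 3.5) of the 46 members tested in all 4 tissues (x axis), in the BA and BT intima and media (y axis). Vertical lines part the roles, from left to right small heat shock proteins, HSP70 and HSP110, HSP90, DNAJA, DNAJB, DNAJC, exchange factors and HSPB11, and a star marks q below 0.05. The BA media row is red over most HSP70 and HSP110 genes, and stars stand at CRYAB in the BA media and at DNAJB4 and HSPBP1 in the BT media. Most fitted changes of the tested HSP70 and HSP110 genes were above 0 in both intimal tissues as well.

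The BA and BT changes in the media were then compared directly, since both locations came from the same rabbits. The change with ligation was smaller or more negative at the BT than at the BA for 4 members, DNAJB4, CRYAB, BAG2 and HSPH1, and larger at the BT for 0, of 49 tested. Over all genes 0.49% passed this test, 0.288% lower and 0.202% higher at the BT. With an unadjusted p below 0.05, 12 of 49 members were lower at the BT and 0 higher, against 4.97% and 4.09% of 9383 genes, and the median difference was -0.37 over the members and 0.12 over all genes.

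For CRYAB, the ligation change at the BT minus that at the BA was -2.07 on the log2 scale (SE 0.22, q = 4.86e-06). For DNAJB4 it was -2.97 (SE 0.50, q = 0.00284), with separate changes of -0.61 (SE 0.87) at the BA and -2.86 (SE 0.51) at the BT. HSPH1 gave -2.04 (SE 0.34, q = 0.00252): its sham BT media levels of 540 and 463 CPM were above the ligated levels of 325 and 453 CPM, opposite to the BA. The HSPH1 change at the BT did not pass by itself (log2 change -0.36, SE 0.31, q = 0.613). For BAG2 the difference was -2.04 (SE 0.44, q = 0.0268), and its BT media levels overlapped, at 225 and 86.5 CPM in sham and 77.0 and 173 CPM in ligated rabbits.

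The 8 further members with an unadjusted p below 0.05 were HSPA8 (-1.33, q = 0.0827), HSPA4 (-1.46, q = 0.106), HSPA14 (-1.58, q = 0.254), HSPA9 (-1.20, q = 0.306), DNAJA4 (-1.74, q = 0.309), DNAJA2 (-1.01, q = 0.380), HSPB8 (-0.87, q = 0.433) and DNAJC21 (-1.09, q = 0.543). HSPA4 and HSPA8 passed with DESeq2 and with all genes with a count. By role, the 12 held 5 of 10 HSP70 and HSP110 genes, 2 of 3 DNAJA genes and 2 of 4 small heat shock proteins. They also held 1 of 7 DNAJB genes, 1 of 5 exchange factors and 1 of 18 DNAJC genes. Of all genes, 4.97% were lower at this p.

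The test rested on the rabbit block and on the form of the fit: without rabbit as a block 0 members passed, with q from 0.175 for CRYAB to 0.772 for DNAJB4, and in the version 4 form of the quasi-likelihood test 0 passed, with CRYAB at q = 0.0535. Leaving out 1 rabbit left 3 to 5 members past the threshold, and BAG2 dropped out without rabbit 3 (q = 0.0571) and without rabbit 5 (q = 0.197). The difference for DNAJB4 was -3.99 without rabbit 3 and -1.99 without rabbit 4.

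**Figure D3:**
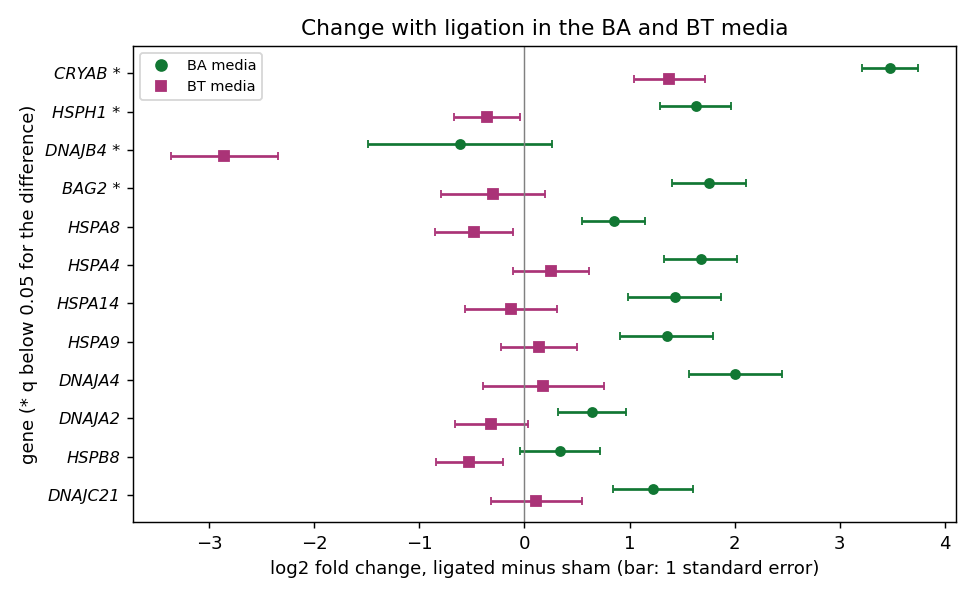
Log2 fold change with ligation (x axis, points with bars of 1 standard error) in the BA media (green circles) and the BT media (purple squares) for the 12 members whose changes differed with an unadjusted p below 0.05 (y axis). For all 12 the BT value lies to the left of the BA value, and a star marks the 4 with q below 0.05, CRYAB, HSPH1, DNAJB4 and BAG2.

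In the intima, higher flow changed no member past the threshold at either location. In the BA intima edgeR called 0 of 51 members, beside 0% of 8968 genes, while DESeq2 called CRYAB (q = 0.00819). With an unadjusted p below 0.05, 4 members were higher, CRYAB, HSPA4, HSPA14 and HSPH1, and 0 lower, against 2.46% and 3.47% of all genes. Without overlap between groups, 15 members were higher and 7 lower, against 15.4% and 20.1%. CRYAB had the smallest p of the members (log2 change 2.30, SE 0.66, q = 0.718), and it passed when rabbit 3 was left out (3.39, q = 7.24e-05).

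HSPA4 in the BA intima was 74.7 and 83.3 CPM in sham and 301 and 170 CPM in ligated rabbits (log2 change 1.58, SE 0.49, q = 0.731). HSPA14 was 49.6 and 23.0 CPM against 169 and 89.7 CPM (1.83, SE 0.61, q = 0.743), and HSPH1 was 208 and 176 CPM against 519 and 313 CPM (1.12, SE 0.47, q = 0.804). These 3 were higher in both ligated rabbits. On the lower side the smallest p belonged to DNAJC28 (21.4 and 20.8 CPM against 0.106 and 6.84 CPM, q = 0.858), the small heat shock protein HSPB6 (39.3 and 42.0 against 11.0 and 29.1 CPM, q = 0.862) and HSPA12A (1.58 and 4.56 against 0.532 and 0.342 CPM, q = 0.906).

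In the BT intima edgeR called 0 of 51 members, beside 0% of 9276 genes. Of all genes, 4.25% were higher and 7.4% lower at an unadjusted p below 0.05, as was 1 member on each side, and 11 members were higher and 5 lower without overlap, against 20.4% and 25.5%. HSPA13, an HSP70 of the ER, had 60.6 and 26.5 CPM in sham and 140 and 106 CPM in ligated BT intima (log2 change 1.50, SE 0.55, q = 0.383). DNAJC12, a co-chaperone of the aromatic amino acid hydroxylases, had 48.0 and 38.4 CPM against 7.52 and 10.9 CPM (-2.24, SE 0.60, q = 0.284). DESeq2 called DNAJC12 (q = 0.0146), the 1 member it called in this tissue.

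HSPA5, the ER HSP70 known as BiP, had 340 and 146 CPM in sham and 540 and 439 CPM in ligated BT intima (log2 change 1.01, SE 0.51, q = 0.491). DNAJB14, a J protein of the ER membrane, had 44.8 and 55.5 CPM against 92.0 and 87.1 CPM (0.84, SE 0.43, q = 0.494). The 2 lower members after DNAJC12 were DNAJC1 (53.9 and 82.1 against 27.7 and 33.9 CPM, q = 0.441) and BAG3 (135 and 172 against 95.9 and 88.9 CPM, q = 0.504). For each of these 4 genes the sham and ligated libraries did not overlap. The fibroblast markers summed to 2916 to 12469 CPM in sham and 480 to 4130 CPM in ligated BA intima, and to 4927 to 18356 against 193 to 457 CPM in the BT intima. The 7 smooth muscle markers summed to 40371 to 83878 against 48144 to 53550 CPM and to 22386 to 22434 against 12034 to 57763 CPM. The macrophage markers summed to 77.1 to 505 against 104 to 203 CPM in the BA intima and to 138 to 1096 against 56.7 to 121 CPM in the BT intima, where CD163, C1QA, C1QB and CSF1R were at 0 in the ligated libraries. The skeletal and cardiac muscle markers summed to 20.1 to 31.9 against 0.319 to 6.50 CPM and to 6.16 to 8.49 against 0.0864 to 2.64 CPM. The 2 erythrocyte genes summed to 4.68 to 91924 CPM in sham and 3302 to 15464 CPM in ligated BA intima. In the BT intima they summed to 1882 to 129800 against 30003 to 57568 CPM, so the sham rabbits stood wide apart. The part of these lists in the intimal values was not tested.

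Whether the change differed between BT and BA in the intima was tested in the same way, and 0 of 53 members passed with edgeR, 0 with DESeq2 and 0 at an unadjusted p below 0.05, beside 0% of 9645 genes by q and 3.46% at an unadjusted p below 0.05. The change in the media minus the change in the intima was tested at each location, again with 0 members past the threshold in edgeR and in DESeq2 (0% of all genes at either location). At an unadjusted p below 0.05 the 1 member at the BA was DNAJA4 (2.18, SE 0.65, q = 1, beside 1.39% of genes higher), and the 1 member at the BT was DNAJB4 (-2.18, SE 0.82, q = 0.973, beside 1.76% lower).

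The ER chaperones of the unfolded protein response gave 6 measured members, HSP90B1, HSPA5, HSPA13, DNAJB9, DNAJC1 and DNAJC3, and 0 of 6 passed in any of the 4 tissues. HSP90B1 (GRP94) had 1716 and 1243 CPM in sham and 2490 and 1976 CPM in ligated BA intima. In the BT intima it had 1400 and 1007 against 2207 and 1916 CPM, in the BA media 1886 and 1459 against 2443 and 2615 CPM, and in the BT media 1916 and 1647 against 2801 and 2436 CPM. Its ligated libraries were above its sham libraries in each tissue, a shift of 0.56 to 0.78 on the log2 scale, with q from 0.352 to 0.885.

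The summed level of the 6 genes was likewise higher in both ligated rabbits of each tissue. It was 1889 to 2992 CPM in sham and 3314 to 3401 CPM in ligated BA intima, and 1547 to 2420 against 3018 to 3415 CPM in the BT intima. In the media it was 2232 to 2915 against 3831 to 3937 CPM at the BA and 2619 to 3127 against 3735 to 4207 CPM at the BT. HSP90B1 supplied most of the counts in this sum, and all 4 tissues came from the same 4 rabbits.

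HSPA5 and DNAJC3 varied more. HSPA5 overlapped between groups in the BA intima (501 and 260 CPM in sham, 437 and 656 CPM in ligated rabbits) and in both medial tissues. DNAJC3 was higher in both ligated rabbits of the BT intima (174 and 110 against 244 and 221 CPM), BA media and BT media (183 and 156 against 247 and 288 CPM), but not in the BA intima (180 and 82.1 against 124 and 194 CPM). DNAJB9 (ERdj4), a J protein that binds the stress sensor IRE1, had changes on both sides of 0, with log2 values of -0.35 and -0.03 in the intima and 0.57 and 0.14 in the media of the BA and BT (q from 0.478 to 0.988).

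**Figure D4:**
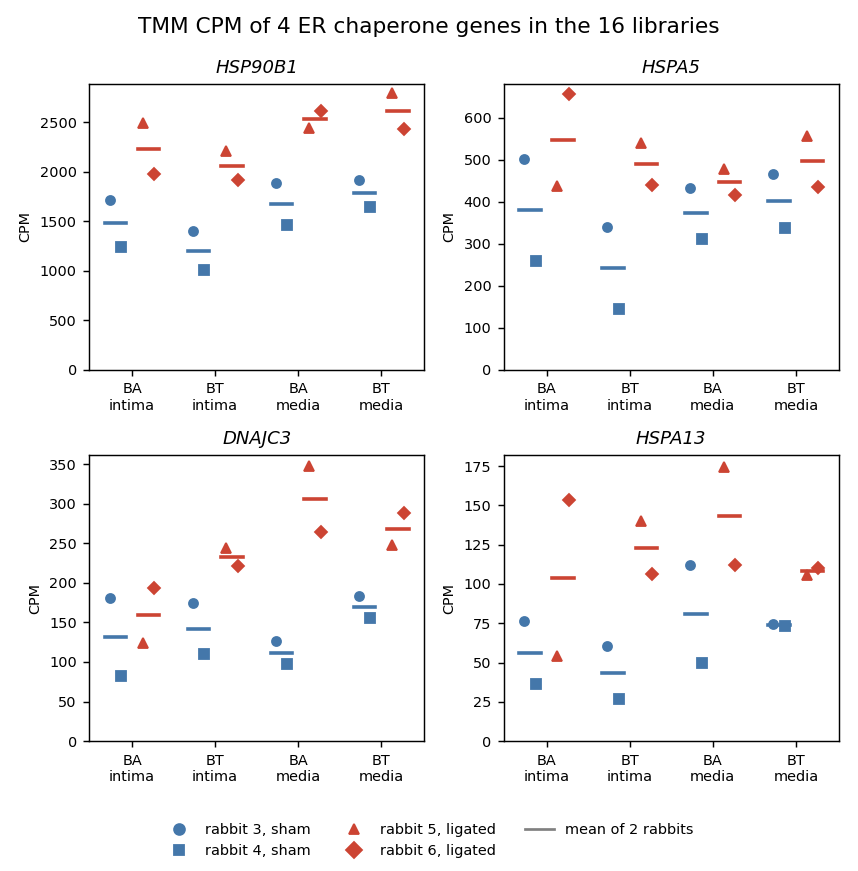
TMM CPM (y axis, from 0) of the ER chaperones HSP90B1, HSPA5, DNAJC3 and HSPA13 in each library, by location and layer (x axis). Each point is 1 rabbit, blue for sham and red for ligated, with a bar at the mean of 2 rabbits. For HSP90B1 both red points lie above both blue points in each of the 4 tissues, while HSPA5 overlaps in 3 of them.

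Among the measured genes of a list of cytosolic HSF1 targets, most fitted ligation changes were above 0 in the BA media and in both intimal tissues. In the BT media most were below 0. Of the 15 genes listed, 7 were measured: CRYAB, HSPH1, HSPA8, HSPA4L, DNAJA1, DNAJB4 and BAG3. In the BA media 1 rose, 0 fell and 5 of 7 fitted changes were above 0, with a median of 0.78. Of all genes in the BA media, 0.805% passed and 45% were above 0. In the BT media 0 rose, 1 fell and 1 of 7 was above 0, with a median of -0.48. Of all genes in the BT media, 2.34% passed and 51% were above 0. In the BA intima 5 of 7 were above 0 (median 0.84, against -0.10 over all genes). In the BT intima 4 of 7 were (0.64 against -0.13), and 0 passed in either. Without CRYAB, the summed level of the other 6 was 1579 and 904 CPM in sham and 1890 and 2071 CPM in ligated BA media, and 2413 and 1507 against 916 and 1273 CPM in ligated BT media. DNAJA1, a general cytosolic J protein, had log2 changes of 0.36 and 0.65 in the intima and 0.22 and -0.21 in the media of the BA and BT (q from 0.718 to 0.973), and rabbit 5 had the highest level of the gene, 251 CPM in the BT intima.

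The mitochondrial chaperones gave 5 measured members, HSPA9, DNAJC11, DNAJC15, DNAJC19 and DNAJC30, of which 4 were tested. None of the 4 passed in a tissue, and 1 had an unadjusted p below 0.05, HSPA9 in the BA media. DNAJC15, a subunit of the import motor, had 120 and 66.2 CPM in sham and 180 and 167 CPM in ligated BA media (log2 change 0.92, SE 0.41, q = 0.376). In the BT media it had 77.9 and 73.9 against 132 and 130 CPM (0.79, SE 0.37, q = 0.319). The DNAJC class as a whole had median changes of 0.01 and 0.03 in the intima and -0.05 and 0.06 in the media of the BA and BT, with 0 of 17 to 19 tested members past the threshold.

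Of the other small heat shock proteins, HSPB6 (HSP20), which takes part in smooth muscle relaxation, had log2 changes of -1.03 and -0.62 in the intima and -0.69 and 0.07 in the media of the BA and BT (q from 0.746 to 0.961). HSPB7, a filamin-binding member, was low, at 0 to 17.2 CPM, and had its smallest q in the BT media (log2 change 2.60, SE 1.39, q = 0.389). HSPB8 had log2 changes of -0.46 and 0.00 in the intima and 0.34 and -0.52 in the media. None of these 3 genes passed in a tissue.

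The layers were compared within rabbits, over 4 rabbits at each location and with sham and ligated animals together. DNAJC17, a nuclear J protein linked to splicing, was higher in the intima, by 1.75 on the log2 scale at the BA (SE 0.30, q = 0.0427) and 1.93 at the BT (SE 0.32, q = 0.0277). At the BT the intima had less HSPB8 than the media, by a log2 difference of -1.36 (SE 0.27, q = 0.0445). At the BA 1 of 51 members passed, beside 0.6% of 9495 genes, and at the BT 2 of 51, beside 2.09% of 9661 genes. At an unadjusted p below 0.05, 2 members were higher in the intima at either location, against 6.57% and 7.24% of all genes, and 7 at the BA and 8 at the BT were lower, against 5.24% and 6.52%.

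DNAJC17 was 116 to 614 CPM in the 8 intimal and 41.8 to 114 CPM in the 8 medial libraries, and the intima was above the media in 8 of 8 pairs, by a ratio of 1.76 to 8.22. The 8 pairs are both locations of the same 4 rabbits, so they are not 8 independent replicates. How many of all genes had 8 of 8 pairs on the same side is not given here. Rabbit 4, a sham animal, had the highest intimal levels, 445 CPM at the BA and 614 CPM at the BT. DNAJC17 overlaps ZFYVE19 in the RefSeq annotation, and ZFYVE19 had a median of 2.34 CPM. The intima minus media difference of ZFYVE19 was 0.25 at the BA (SE 1.17, q = 0.966). At the BT it was 1.88 (SE 1.35, q = 0.627), with the same sign as that of DNAJC17. DNAJB14, the ER membrane J protein, was also above the media in 8 of 8 pairs, by 1.25 at the BA (SE 0.39, q = 0.235) and 1.12 at the BT (SE 0.38, q = 0.205).

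HSPB8 was 66.6 to 184 CPM in the intima and 186 to 393 CPM in the media. The media was higher in 8 of 8 pairs for HSPB8 and also for HSPB6, HSPB7 and BAG3. BAG3 had an intima minus media difference of -0.64 at the BA (SE 0.24, q = 0.329) and -0.99 at the BT (SE 0.24, q = 0.0883). CRYAB was higher in the media in 7 of 8 pairs, with -0.94 at the BA (SE 0.29, q = 0.220) and -1.36 at the BT (SE 0.29, q = 0.0557), and HSPH1 and BAG2 were higher in the media in 7 of 8 pairs as well.

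HSPA12B, an atypical HSP70 known from endothelium, was 0.507 to 6.09 CPM in the intima and 0 to 2.18 CPM in the media. The intima was higher in 8 of 8 pairs, from 9 to 74 counts a library in the intima and 0 to 9 in the media, and the test did not pass at either location (q = 0.596 and 0.574). The layer calls rested on single rabbits and on the block. Without rabbit as a block 0 members passed, DNAJC17 passed at neither location without rabbit 4 (q = 0.266 and 0.125), 5 (0.116 and 0.0552) or 6 (0.243 and 0.109), and HSPB8 at the BT had q = 0.0661 to 0.199 with any 1 rabbit left out. DESeq2 called 6 members at each location, adding CRYAB and BAG2 at both, and its share of all genes called is not given.

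**Figure D5:**
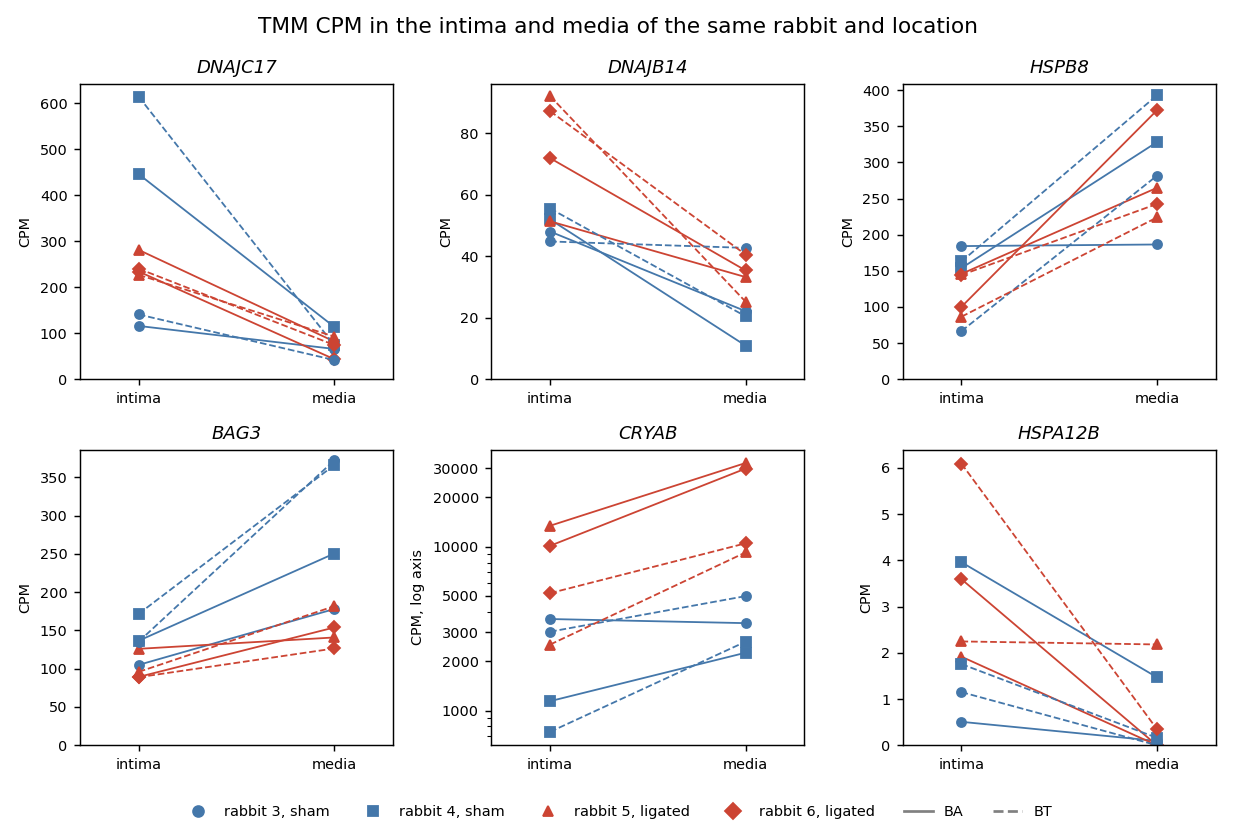
TMM CPM (y axis, log scale for CRYAB only) of 6 members in the intima and media (x axis), with a line joining the 2 layers of the same rabbit and location, solid for the BA and dashed for the BT. Blue marks sham and red ligated rabbits. DNAJC17, DNAJB14 and HSPA12B fall from intima to media in 8 of 8 pairs, HSPB8 and BAG3 climb in 8 of 8, and CRYAB climbs in 7 of 8.

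Between the locations, with all 4 rabbits together, 0 of 53 members in the intima and 0 of 49 in the media passed with edgeR, beside 0.0104% and 0.032% of all genes. At an unadjusted p below 0.05, 3 members were lower at the BT in the intima and 2 in the media, against 1.92% and 2.81% of all genes, and 0 were higher in either, against 1.73% and 2.45%. DNAJB4 was lower at the BT than at the BA in the intima of 4 of 4 rabbits (log2 difference -1.10, SE 0.26, q = 1.00), and DESeq2 called it, the 1 member that it called for location, with 0 in the media. CRYAB was lower at the BT in the intima of 4 of 4 rabbits (-1.04, SE 0.37, q = 1.00). BAG2 was lower at the BT in 3 of 4 rabbits in each layer (-0.94, SE 0.40, q = 1.00 in the intima and -0.81, SE 0.36, q = 0.893 in the media). The second member of the media was DNAJB7, which was at 0 in all BT media libraries and at 0 to 7.52 CPM in the BA media.

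The members were spread over a wide range of levels. Across the 55 members, the median over the 16 libraries was above 100 CPM for 17 and below 1 CPM for 9, and 42 members had a count in all 16 libraries. DNAJC19, a subunit of the mitochondrial import motor, kept within 180 to 321 CPM, and DNAJA2, a general cytosolic J protein, within 183 to 416 CPM. HSPA6 and HSPB3 were counted in a single library each, the BT intima of sham rabbit 3, at 2.64 and 2.03 CPM. None of the members named in this paragraph passed the threshold in a comparison of flow, layer or location.

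Genes that work with these chaperones but are no members were counted from 3 lists. Of 24 HSF factors and HSP70 or HSP90 partners, 15 were measured, and 1 passed in a flow comparison. This was CACYBP, a calcyclin-binding protein with a CS domain like that of some HSP90 co-chaperones, which rose in the BA media by 2.09 on the log2 scale (SE 0.31, q = 0.0282). It had 238 and 184 CPM in sham and 917 and 855 CPM in ligated BA media, and 308 and 179 against 464 and 535 CPM in the BT media (q = 0.148). In the BA media, where 0.805% of all genes passed, 10 of the 15 had a fitted change above 0 (45% of all genes), with a median of 0.48. There 4 were higher and 0 lower at an unadjusted p below 0.05, against 6.75% and 6.87% of all genes. Of the 14 genes of this list tested in the BT media, 9 had a fitted change above 0 (51% of all genes), with a median of 0.52. At an unadjusted p below 0.05, 3 were higher and 2 lower in the BT media, against 7.95% and 8% of all genes.

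Of 10 partners of chaperone-assisted selective autophagy, by which BAG3 and HSPB8 clear damaged filamin, 6 were measured. FLNC, the muscle filamin, rose in the BT media by 3.72 (SE 0.52, q = 0.00376), from 11.9 and 11.6 CPM in sham to 93.2 and 214 CPM in ligated rabbits. In the BA media it had 13.4 and 75.7 against 205 and 366 CPM (q = 0.151). SYNPO2, the actin-binding adaptor of BAG3, had a more negative ligation change in the BT media than in the BA media (log2 changes -2.10 and -0.13, difference -2.19, SE 0.50, q = 0.0391), with 326 and 124 CPM in sham and 20.9 and 81.7 CPM in ligated BT media, and 173 and 75.1 against 84.4 and 138 CPM at the BA.

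Of 14 immediate early genes, transcripts that respond within minutes to stimuli, 11 were measured. In the BT media 2 of 8 tested fell and 0 rose, beside 2.34% of all genes past the threshold. These were NR4A1 with a log2 change of -2.24 (SE 0.41, q = 0.0153) and ATF3 with -2.39 (SE 0.54, q = 0.0411). NR4A1 had 141 and 136 CPM in sham and 26.8 and 31.2 CPM in ligated BT media. In the 3 other tissues 0 of 8 or 9 tested immediate early genes passed. At an unadjusted p below 0.05, 5 of 9 were lower and 0 higher in the BT intima, against 7.4% and 4.25% of all genes. In the BT media 3 of 8 were lower and 1 higher, against 8% and 7.95%. The part of the immediate early genes in the DNAJB4 and BAG3 values of the BT media was not tested.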

How the data were processed

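The 16 libraries, 1 per rabbit, location and layer, were grouped by the labels. Per the methods of the authors, cDNA was amplified with a SMART-Seq v4 kit, tagmented with Nextera, read from 1 end, and aligned untrimmed to oryCun2 with STAR. They counted uniquely mapped reads on Ensembl exons with featureCounts 1.6.2, with a strand setting although the kit does not mark strand, so overlapping genes cannot be told apart. The deposited table holds these counts, not normalized, by gene symbol. The 1 entry without a symbol, 13.8% to 18.7% of the counts, was left out, and 22 symbols that had turned into dates were not mapped.

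Counts were tested with edgeR 4.0.16 in R 4.3.3 (TMM, quasi-likelihood F test in its older form, two-sided, Benjamini-Hochberg, threshold 0.05) for genes with a mean above 1 CPM in at least 1 group, in place of the RPKM filter of the study, since gene lengths were not used here. Ligated and sham tissues were fitted per location and layer. Layers, locations and the differences between flow changes were fitted with rabbit as a block, since the labels give each rabbit in all 4 tissues. Deviations of same-rabbit libraries from their group means correlated at -0.0305 to 0.409 in the 8 pairings of tissues. Replicates are separate rabbits, 2 a group.

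The members and lists were chosen with earlier results of these data known. Values are given for members past the threshold, for core members of each role, and for the 3 members with the smallest p in each direction of each flow comparison, and for partner genes only past the threshold. Of the members, 54 were found by symbol in the RefSeq table of mOryCun1.1, which was used for overlapping genes only. In simulated data with 200 genes changed by 3 on the log2 scale, the test recovered 43% (BA) and 35% (BT) of them in the intima, and 60.5% (BA) and 75% (BT) in the media. Alternatives were RLE scaling, library size alone, no filter, DESeq2 1.42.0, edgeR's version 4 form, 1 fit per layer, no block, and leaving out each rabbit.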

Additional observations from a re-analysis of the deposited data

Results flagged for a closer look

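In the media, the change with ligation at the BT differed from that at the BA for 4 members, each by an edgeR quasi-likelihood test of the difference with rabbit as a block (q below 0.05). The difference, BT minus BA on the log2 scale, was -2.07 for CRYAB, whose level was higher in ligated rabbits at both locations. It was -2.97 for DNAJB4, which fell at the BT, where both ligated libraries were below both sham libraries, while the groups overlapped at the BA. It was -2.04 for HSPH1, higher in both ligated rabbits at the BA and lower in both at the BT. Neither HSPH1 change passed by itself (q = 0.0723 at the BA and 0.613 at the BT). The difference was -2.04 for BAG2, higher in both ligated rabbits at the BA, with groups that overlapped at the BT. Without the block 0 of the 4 passed.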

How the results depend on the processing

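With 2 rabbits a group, counts of members past the threshold depended on the fit. Shares over all genes were taken for the main fit only. The counts from other fits therefore do not show whether members passed more often than other genes. DESeq2 called 1 member in the BA intima (CRYAB), 1 in the BT intima (DNAJC12), 7 in the BA media, 4 in the BT media, 6 for layer at the BA, 6 for layer at the BT and 1 for location in the intima. With all genes with a count, 7 passed at the BA and 4 at the BT in the media. With 1 fit over the 8 libraries of the layer, 4 passed at the BA and 1 at the BT in the media. In the version 4 form, 0 passed for the difference between BT and BA changes in the media. Without the replicate block, 0 passed for that difference, 0 for layer at the BA and 0 for layer at the BT, and it changed no other count. No paired analysis was possible because sham and ligated tissue came from different rabbits, for the 4 flow comparisons. Leaving out each rabbit gave 0 to 1 members in the BA intima, 0 to 0 in the BA media, 0 to 5 in the BT media, 0 to 3 for layer at the BA and 0 to 2 for layer at the BT, and where it left 1 library in a group, that library was assumed to vary like the other group. For all these changes the cause was not tested. Of all alternative counts, 82 stayed within 1.5 times the count of the report and 30 did not. Of the alternative values for named genes, 253 kept their side of the threshold, 33 lost it, 17 gained it and 0 reversed.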
